A study of Mus musculus with 8 samples.

Results

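The glucocorticoid receptor gene Nr3c1 and 9 genes that the hormone is known to induce (Tsc22d3, Hif3a, Fkbp5, Per1, Zbtb16, Ddit4, Dusp1, Klf9 and Sgk1) were followed in mouse MLL-AF9 acute myeloid leukaemia cells taken from the marrow after chemotherapy. The 10 genes were picked by symbol, and each matched 1 of the 27179 gene identifiers of the count table. They were proposed with their values in the diet comparison already known, so those values are given as a description and carry no test of their own. All 10 passed the filter on low counts that left 13364 genes for testing.

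The comparison is between 3 libraries from mice whose feed lacked leucine, isoleucine and valine, the branched-chain amino acids (BCAA), and 5 libraries from mice given a diet with standard amino acids. The labels of the first group read only BCAA, and the series' title and design give its diet as BCAA-free. Both groups of recipients were male, 8 to 10 weeks old and labelled WT, received leukaemia cells intravenously without conditioning, and were treated at high leukaemia burden with 5 daily doses of cytarabine at 100 mg/kg, the first 3 of them together with doxorubicin at 3 mg/kg. The leukaemia cells carry green fluorescent protein (GFP) and luciferase and were grown from the cells of a terminally ill mouse, so all libraries share that origin. Cells were collected from crushed bones at the maximum response to chemotherapy and sorted as living GFP-positive cells, and the labels call the libraries biological replicates without giving the hour of collection, the cage or any pooling. The 3 BCAA-free libraries held 14851240 to 30306697 counts each, and the 5 standard-diet libraries 16588662 to 38966911.

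Glucocorticoids, in mice mainly corticosterone from the adrenal gland, enter cells freely and bind a receptor that chaperones of the heat shock family hold ready in the cytoplasm. The loaded receptor moves to the nucleus, binds palindromic response elements as a pair and switches on genes that dampen inflammation, slow growth signals and shift metabolism. In blood the hormone drives death of immature lymphocytes, spares or matures myeloid cells and follows both stress and the time of day, and several of the induced genes also answer to other signals.

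The promoters that hold a full-length match to at least 1 of 3 motifs are shown as sequence matches only. Binding and response were not tested. Of the 10 genes, 8 had RefSeq promoter windows (GRCm38.p6, 250 bases before to 50 after each annotated start, 16 windows in all). Both strands were searched for the receptor's palindrome (AGAACA, any 3 bases, TGTTCT), the E-box CACGTG of clock proteins and the cAMP response element TGACGTCA. Matches are in capitals.

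Sgk1, chr10:21993640-21993939, plus strand: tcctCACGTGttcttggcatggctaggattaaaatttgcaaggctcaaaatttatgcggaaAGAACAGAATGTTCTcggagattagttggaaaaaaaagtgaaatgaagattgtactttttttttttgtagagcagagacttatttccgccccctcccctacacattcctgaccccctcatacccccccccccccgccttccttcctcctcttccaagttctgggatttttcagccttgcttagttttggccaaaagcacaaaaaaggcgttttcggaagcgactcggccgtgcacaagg

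Dusp1, chr17:26508423-26508722, minus strand: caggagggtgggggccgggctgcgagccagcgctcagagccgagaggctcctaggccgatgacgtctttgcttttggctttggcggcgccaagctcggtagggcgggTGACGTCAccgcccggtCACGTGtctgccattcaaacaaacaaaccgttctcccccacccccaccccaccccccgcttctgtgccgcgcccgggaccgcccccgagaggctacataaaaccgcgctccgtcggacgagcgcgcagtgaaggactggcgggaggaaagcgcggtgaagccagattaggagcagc

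Per1, chr11:69098699-69098998, plus strand: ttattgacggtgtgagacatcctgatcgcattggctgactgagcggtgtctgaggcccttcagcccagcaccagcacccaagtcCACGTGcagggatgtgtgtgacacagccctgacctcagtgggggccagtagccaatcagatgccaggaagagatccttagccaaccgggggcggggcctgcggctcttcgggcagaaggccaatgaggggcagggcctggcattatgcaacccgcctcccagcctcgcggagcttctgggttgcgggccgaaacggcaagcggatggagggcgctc

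Fkbp5, chr17:28486100-28486399, minus strand: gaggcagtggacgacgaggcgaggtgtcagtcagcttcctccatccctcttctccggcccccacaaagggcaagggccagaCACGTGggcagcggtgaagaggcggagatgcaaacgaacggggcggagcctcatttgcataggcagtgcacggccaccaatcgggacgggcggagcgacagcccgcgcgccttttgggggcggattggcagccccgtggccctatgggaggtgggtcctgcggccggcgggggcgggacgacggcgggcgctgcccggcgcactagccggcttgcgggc

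The full palindrome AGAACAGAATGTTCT began 189 bases before the fifth of 6 annotated Sgk1 starts. It is rare in such windows: 3 of 32851 promoter windows of all genes held it (0.00913%). The other two belonged to Acnat2 and Gm35041, neither of which passed the filter on low counts. An E-box stood in 4 of the 16 windows, 1 each of Fkbp5, Per1, Dusp1 and Sgk1, against 7.15% of all windows. Dusp1 alone of the 8 genes held the cAMP response element, 143 bases before its start, against 1.79% of all windows. The half-site TGTTCT, which lies within the palindrome, stood in 4 of the 16 windows, 3 of Sgk1 and 1 of Tsc22d3, against 19% of all windows. None of the 3 full motifs was in the windows of Tsc22d3, Hif3a, Ddit4 or Klf9, which says nothing of elements elsewhere.

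Of the 10 genes, 3 were higher in every BCAA-free library than in every standard-diet library: Hif3a, Tsc22d3 and Ddit4. The same full separation upward was seen for 4.17% of all tested genes, downward for 4.68% and in either direction for 8.84%. The receptor itself differed little between diets, and the remaining 6 genes overlapped between the groups. In the fit over all genes (edgeR's quasi-likelihood test, Benjamini-Hochberg adjusted p under 0.05) Hif3a and Tsc22d3 were past the threshold upward and none downward, where 0.217% of tested genes were called higher, 0.539% lower and 0.756% in either direction. The split by direction moved with single BCAA-free libraries: 29 genes were called higher and 72 lower with all libraries, 78 and 56 without BCAA-free replicate 3, and 3 and 29 without replicate 2. DESeq2 put 3 of the 10 past the threshold upward, where it called 0.99% of genes higher and 2.06% lower, and limma-voom put 1 past it, where it called 0.636% in either direction. An unadjusted p under 0.05 was reached by 1800 of the 13364 tested genes (13.5%). These counts of the 10 describe genes that were chosen with the contrast in view and support nothing. Of the 10 log2 fold changes 8 were positive with a median of 0.45, beside 52.6% positive and a median of 0.02 over all tested genes.

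**Figure D1:**
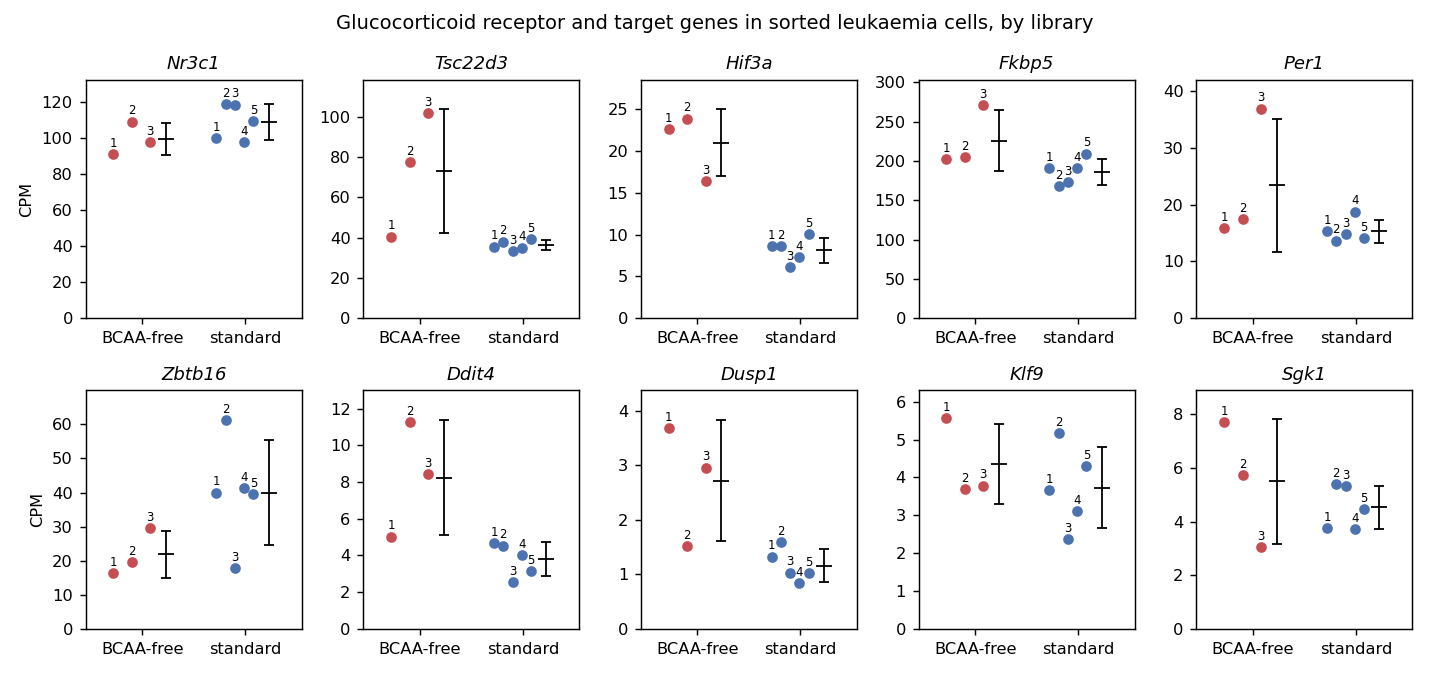
CPM (read counts scaled to a common library total, with TMM factors) of the 10 genes in each library, with the BCAA-free diet left (red) and the standard diet right (blue); numbers are replicates, and bars show the mean and SD (n = 3 and n = 5). Tsc22d3, Fkbp5 and Per1 were highest in BCAA-free replicate 3, Hif3a was higher in all 3 BCAA-free libraries, and Nr3c1 overlapped between diets.

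Nr3c1 (gene 14815, chromosome 18, 39410545 to 39519421), the receptor through which all these genes are induced, lay at 91.3, 109.1 and 97.8 CPM (scaled read counts) in BCAA-free replicates 1 to 3, against 100.0, 119, 119, 97.8 and 109.3 CPM in standard-diet replicates 1 to 5. The groups overlapped, with BCAA-free replicate 1 the lowest of the 8 libraries. Its log2 fold change was -0.13 (SE 0.11), and it stayed between -0.21 and -0.08 whichever library was left out. It was also one of the steadier genes, since 19.4% of tested genes had a smaller SD of log2 CPM among the standard-diet libraries. The mineralocorticoid receptor Nr3c2, its closest relative and the other receptor for corticosterone, averaged 0.0765 ± 0.0690 CPM in BCAA-free mice (SD, n = 3) and 0.134 ± 0.182 CPM in standard-diet mice (SD, n = 5), too few counts to be tested.

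Fkbp5 (gene 14229, chromosome 17, 28398753 to 28486149), the co-chaperone FKBP51 that lowers the receptor's affinity for hormone and closes a feedback loop, was at 203, 205 and 271 CPM in BCAA-free mice, against 191, 168, 173, 191 and 209.5 CPM in standard-diet mice. Replicate 3 of the BCAA-free diet stood above all others, and the other two BCAA-free libraries lay within the standard-diet range. The log2 fold change was 0.28 (SE 0.12), and without BCAA-free replicate 3 it was 0.12.

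Tsc22d3 (gene 14605, chromosome X, 140539528 to 140600522) encodes GILZ, a leucine zipper protein that binds NF-kB and AP-1 and carries part of the anti-inflammatory action of the hormone. Its levels were 40.6, 77.5 and 101.9 CPM in BCAA-free replicates 1 to 3, against 35.6, 38.1, 33.4, 35.1 and 39.2 CPM in standard-diet replicates 1 to 5. The groups did not overlap, but BCAA-free replicate 1 was only just above the highest standard-diet library and replicate 3 was far above it. The standard-diet libraries were close to each other (SD of log2 CPM 0.09, smaller in 7.53% of tested genes), whereas the BCAA-free libraries were spread (SD 0.68, smaller in 89.8% of tested genes). The mean was 73.3 ± 30.9 CPM (SD, n = 3) in BCAA-free mice and 36.3 ± 2.36 CPM (SD, n = 5) in standard-diet mice, a 2.03-fold difference (log2 fold change 1.02, SE 0.21). That value was 0.70 when BCAA-free replicate 3 was left out and 1.31 when replicate 1 of that diet was. With 1 library dropped at a time, only the fit without BCAA-free replicate 1, of 8, kept the gene past the threshold.

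Dusp1 (gene 19252, chromosome 17, 26505591 to 26508472), the phosphatase MKP-1 that switches off stress kinases, was the scarcest of the genes. It had 3.69, 1.52 and 2.96 CPM in BCAA-free mice, against 1.32, 1.59, 1.03, 0.840 and 1.03 CPM in standard-diet mice. BCAA-free replicate 2 fell inside the standard-diet range and the other two lay above it. Its log2 fold change of 1.22 had a wide error (SE 0.48), and each value rests on between 14 and 93 counts. Its annotated exons share 11 bases with Ergic1 on the opposite strand, and whether the counting used strand is not given in the sources used here.

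Hif3a (gene 53417, chromosome 7, 17030993 to 17062427), an alpha subunit of the hypoxia-inducible factor family whose shorter forms restrain the other subunits, was the one gene of the 10 that stayed past the threshold whichever library was left out. It lay at 22.7, 23.9 and 16.4 CPM in BCAA-free replicates 1 to 3, against 8.58, 8.62, 6.11, 7.32 and 10.04 CPM in standard-diet replicates 1 to 5. Every BCAA-free library was well above every standard-diet library, and replicate 3, the highest for Tsc22d3, was here the lowest of its group. The means were 21.001 ± 3.99 CPM (SD, n = 3) in BCAA-free mice and 8.13 ± 1.48 CPM (SD, n = 5) in standard-diet mice, a 2.58-fold difference (log2 fold change 1.37, SE 0.20). That value ran from 1.26 to 1.51 over the 8 fits without 1 library.

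Its relative Hif1a, the oxygen-regulated subunit of most cells, was at 121 ± 25.6 CPM in BCAA-free mice (SD, n = 3) and 171 ± 17.2 CPM in standard-diet mice (SD, n = 5), with every BCAA-free library below every standard-diet library. It did not pass in edgeR (log2 fold change -0.50, SE 0.13, adjusted p = 0.0896), while DESeq2 called it lower (adjusted p = 0.0174). Of 20 tested genes induced by hypoxia none was past the threshold by edgeR, DESeq2 or limma-voom, 3 had an unadjusted p under 0.05 (13.5% of all tested genes did), and 16 had a negative log2 fold change (median -0.13). The smallest p in that list belonged to the hexokinase Hk2, at 111 ± 6.79 CPM in BCAA-free mice (SD, n = 3) and 139 ± 11.6 CPM in standard-diet mice (SD, n = 5; edgeR adjusted p = 0.192).

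Ddit4 (gene 74747, chromosome 10, 59949675 to 59951770), also called REDD1, inhibits the growth kinase complex mTORC1 and is induced by hormone, low oxygen and energy stress alike. It was at 5.03, 11.3 and 8.43 CPM in BCAA-free mice, against 4.69, 4.54, 2.54, 4.02 and 3.14 CPM in standard-diet mice. The groups did not overlap, although BCAA-free replicate 1 exceeded standard-diet replicate 1 by a small margin. Its log2 fold change was 1.12 (SE 0.31), which became 0.83 if BCAA-free replicate 2 was dropped and 1.37 if replicate 1 was. DESeq2 put it past the threshold and edgeR and limma-voom did not.

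Sgk1 (gene 20393, chromosome 10, 21882184 to 21999903), a survival kinase of the AKT group and the gene whose promoter held the full palindrome, was at 7.71, 5.74 and 3.05 CPM in BCAA-free mice, against 3.77, 5.39, 5.32, 3.72 and 4.47 CPM in standard-diet mice. BCAA-free replicates 1 and 2 were the highest and replicate 3 the lowest of all 8 libraries. Within the BCAA-free group the order of the replicates was the reverse of that for Tsc22d3. A log2 fold change of 0.27 (SE 0.32) became -0.05 if BCAA-free replicate 1 was dropped and 0.56 if replicate 3 was. Its relative Sgk3 was lower in all 3 BCAA-free libraries, at 184 ± 19.6 CPM (SD, n = 3), than in all standard-diet libraries, at 257 ± 26.7 CPM (SD, n = 5), and missed the threshold in edgeR (adjusted p = 0.0598) but not in DESeq2 (adjusted p = 0.00438).

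Per1 (gene 18626, chromosome 11, 69095108 to 69109965), a repressor of the circadian clock that the hormone induces within the hour, was at 15.8, 17.5 and 36.9 CPM in BCAA-free mice, against 15.4, 13.7, 14.8, 18.8 and 14.1 CPM in standard-diet mice. A single library, BCAA-free replicate 3, stood apart, and the other two were inside the standard-diet range. With all libraries the log2 fold change was 0.62 (SE 0.24), and without that one it was 0.12. Per2, its relative in the clock, was at 27.8 ± 2.16 CPM in BCAA-free mice (SD, n = 3) and 19.7 ± 4.91 CPM in standard-diet mice (SD, n = 5; edgeR adjusted p = 0.251). None of 17 tested clock genes passed in edgeR or limma-voom, 6 had an unadjusted p under 0.05 (against 13.5% of all genes), and DESeq2 called 1 lower (against 2.06%). That gene was Usp2, a deubiquitinase with daily rhythm, at 7.52 ± 1.34 CPM in BCAA-free mice (SD, n = 3) and 13.3 ± 1.52 CPM in standard-diet mice (SD, n = 5; edgeR adjusted p = 0.0772, DESeq2 adjusted p = 0.00925).

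Zbtb16 (gene 235320, chromosome 9, 48651797 to 48836225) encodes PLZF, a zinc finger repressor of progenitors and innate-like lymphocytes, and with Nr3c1 it was one of the pair with a negative log2 fold change. It lay at 16.4, 19.6 and 29.6 CPM in BCAA-free mice, against 40.0, 61.3, 17.9, 41.2 and 39.4 CPM in standard-diet mice. Of the standard-diet libraries 4 were above all 3 BCAA-free ones, and standard-diet replicate 3 fell among them. Its spread in standard-diet mice was large (SD of log2 CPM 0.63, smaller in 94.2% of tested genes). The log2 fold change was -0.86 (SE 0.35) with all libraries and -1.05 without standard-diet replicate 3, the one fit that leaves out a library in which it was called lower.

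Klf9 (gene 16601, chromosome 19, 23141226 to 23168129), a Kruppel-like repressor that glucocorticoid and thyroid hormones induce, was at 5.57, 3.68 and 3.79 CPM in BCAA-free mice, against 3.67, 5.16, 2.38, 3.12 and 4.29 CPM in standard-diet mice. The ranges overlapped in part (log2 fold change 0.22, SE 0.34). BCAA-free replicate 1 was above all standard-diet libraries, and standard-diet replicates 1, 3 and 4 were below all BCAA-free libraries. With each library left out in turn that value lay between 0.01 and 0.37.

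**Figure D2:**
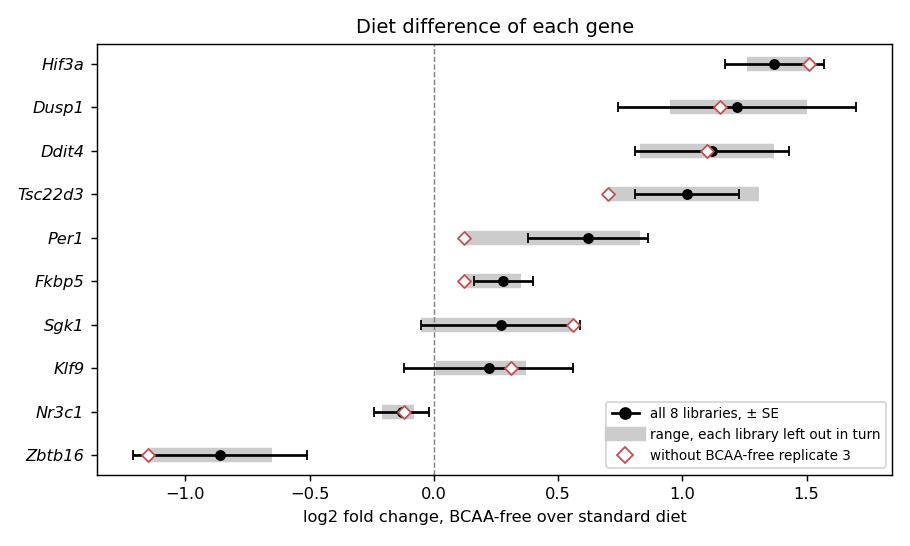
Log2 fold change of each gene, BCAA-free over standard diet (x axis), with its SE (bars), the range over the 8 fits that leave out 1 library (grey) and the value without BCAA-free replicate 3 (open diamonds). Without that library Per1 and Fkbp5 both moved to 0.12 and Tsc22d3 to 0.70, while Hif3a lay at 1.51.

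Per length of annotated exons, expressed as TPM (length-scaled counts with a common sum over the tested genes), the order in standard-diet mice was Fkbp5 (74.5 ± 5.82), Nr3c1 (53.8 ± 6.66), Tsc22d3 (31.7 ± 3.27), Zbtb16 (29.1 ± 12.6), Per1 (10.3 ± 1.19), Ddit4 (8.22 ± 2.26), Hif3a (4.61 ± 0.935), Sgk1 (3.51 ± 0.732), Klf9 (2.96 ± 0.996) and Dusp1 (1.34 ± 0.411; SD, n = 5 throughout). Fkbp5, the top of that order, exceeded 76.2% of tested genes and Dusp1, the bottom, exceeded 9.57%. The ranges of neighbours overlapped for Tsc22d3 and Zbtb16 and for each neighbouring pair from Per1 down to Dusp1. They did not overlap between Fkbp5 and Nr3c1, between Nr3c1 and Tsc22d3 or between Zbtb16 and Per1. On the BCAA-free diet Fkbp5 also led (90.0 ± 13.3; SD, n = 3), and Tsc22d3 (63.5 ± 25.7) had a higher mean than Nr3c1 (48.9 ± 4.74), with overlapping ranges.

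Within the diet groups the 10 genes did not vary as one. After the mean of each diet was subtracted from log2 CPM, the 45 pairs had a median Pearson r of -0.01 over the 8 libraries, against 0.00 for all pairs of tested genes, and 22 pairs were positive. These points share libraries and only 8 of them exist, so the values are descriptions. Fkbp5 and Per1 (r = 0.79), Tsc22d3 and Per1 (0.70) and Tsc22d3 and Fkbp5 (0.63) varied together. All 3 pairs rested on BCAA-free replicate 3, and without it r was 0.23, 0.14 and 0.14. Sgk1 ran against all of them, with r of -0.93 to Per1, -0.86 to Fkbp5 and -0.78 to Tsc22d3, and these were -0.74, -0.58 and -0.48 without BCAA-free replicate 3. Hif3a and Klf9 made another pair (r = 0.68, and 0.71 without that library). About as high as Tsc22d3 and Fkbp5 were Zbtb16 and Ddit4 (0.63), Tsc22d3 and Ddit4 (0.63) and Dusp1 and Klf9 (0.62). Without BCAA-free replicate 3 these were 0.64, 0.79 and 0.70, and their lowest values with 1 library left out were 0.42, -0.17 and 0.47. The receptor's highest r was 0.34, with Tsc22d3, and this ran from -0.27 to 0.57 with 1 library left out, so its sign was not stable.

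**Figure D3:**
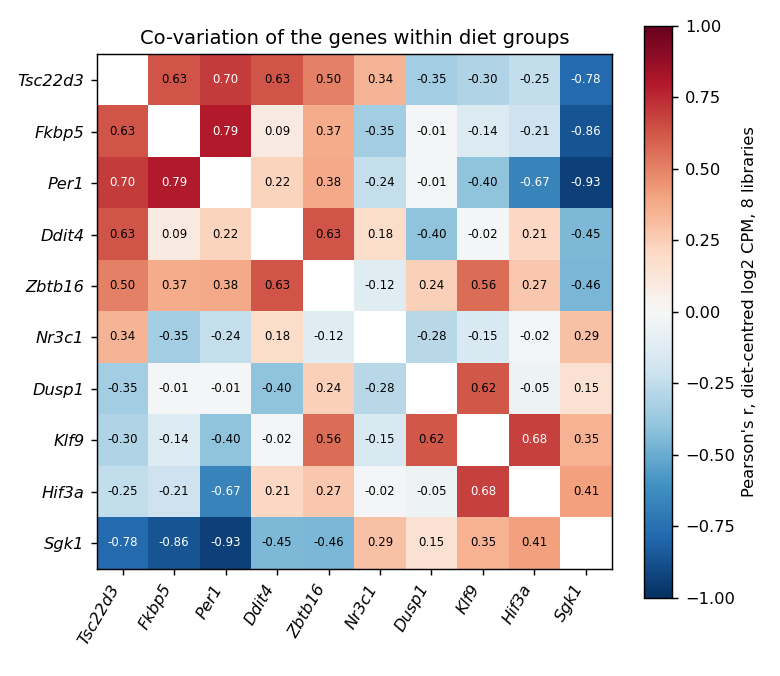
Pearson's r between each pair of the 10 genes over the 8 libraries, computed on log2 CPM after subtracting each diet's mean; red is positive and blue negative. Tsc22d3, Fkbp5 and Per1 form a positive block (0.63 to 0.79), and Sgk1 is negative to each of them (-0.78 to -0.93).

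Over the 12241 other tested genes that averaged 1 CPM or more, those most like Tsc22d3 by that measure were Exoc3, Cks1brt, Wdr82, Gabarapl2 and Dync2li1 (r = 0.97 to 0.98 over 8 libraries). All of them followed the order of the 3 BCAA-free replicates, as Exoc3 did with 57.7, 72.5 and 76.1 CPM, and varied little in standard-diet mice, but 4 of these 5 had a negative log2 fold change, so their likeness to Tsc22d3 lies in the spread within the BCAA-free group. Those most like Nr3c1 were 2310040G24Rik, Ccdc6, Pnrc1, Rbl2 and Crybg3 (r = 0.95 to 0.96). Rbl2, a pocket protein of the retinoblastoma family, had 134, 154 and 148 CPM in BCAA-free mice, against 126, 146, 139, 122 and 138 CPM in standard-diet mice.

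Genes outside the 10 that are known to be induced through the receptor gave 1 call. Of 44 listed genes 39 were tested, of which 1 was called higher and none lower. An unadjusted p under 0.05 was reached by 8 of them (against 13.5% of all genes). In 4 every BCAA-free library was above every standard-diet library (against 4.17% of all genes), and in none was every one below. This was not particular to the list. Of the lists for other signals given below, 6 of 20 tested immediate early genes and 5 of 26 tested FOXO genes separated upward, and none downward. A positive log2 fold change was found for 29 (median 0.28, beside 0.02 over all genes). The called gene was Cd163, the haemoglobin scavenger receptor of macrophages, which rose 3.17-fold, to 12.3 ± 4.75 CPM in BCAA-free mice (SD, n = 3), against 3.85 ± 1.95 CPM in standard-diet mice (SD, n = 5; log2 fold change 1.67, SE 0.36, edgeR adjusted p = 0.0450). Its levels of 14.6, 15.4 and 6.81 CPM in BCAA-free mice overlapped the 4.10, 3.06, 3.06, 1.98 and 7.08 CPM of the standard diet. The call was lost without BCAA-free replicate 1 or 2, without standard-diet replicate 1, 2, 3 or 4, in limma-voom (adjusted p = 0.0662) and with RLE scaling. Cd163 is a macrophage marker too, and another such gene, the mannose receptor Mrc1, named after its values were seen, was at 17.1 ± 6.68 CPM in BCAA-free mice (SD, n = 3) and 7.86 ± 2.07 CPM in standard-diet mice (SD, n = 5; edgeR adjusted p = 0.0687). The 2 most abundant macrophage markers had negative log2 fold changes, Vcam1 with -0.49 and Adgre1 with 74.0 ± 18.3 CPM in BCAA-free mice (SD, n = 3) and 115 ± 35.5 CPM in standard-diet mice (SD, n = 5; log2 fold change -0.63, edgeR adjusted p = 0.332). Slc40a1 was at -0.04, and every other tested gene of the macrophage list had a positive log2 fold change, with only Cd163 called.

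DESeq2 called 4 of the 39 higher, adding Txnip, Il7r and Tns1 to Cd163, where it called 0.99% of all genes higher, and limma-voom called none. Txnip, an inhibitor of thioredoxin and of glucose uptake, was at 114 ± 18.8 CPM in BCAA-free mice (SD, n = 3) and 83.0 ± 5.76 CPM in standard-diet mice (SD, n = 5), without overlap between the groups (edgeR adjusted p = 0.0786, DESeq2 adjusted p = 0.0191). Well known targets were among the genes far from the threshold. Anxa1, the annexin that curbs neutrophil entry, was at 308 ± 112 CPM in BCAA-free mice (SD, n = 3) and 286 ± 103 CPM in standard-diet mice (SD, n = 5; edgeR adjusted p = 0.934). The chemokine receptor gene Cxcr4, at 161 ± 49.1 CPM in BCAA-free mice (SD, n = 3) and 158 ± 28.7 CPM in standard-diet mice (SD, n = 5), had an edgeR adjusted p of 0.965. Nfkbia, the NF-kB inhibitor, was at 46.7 ± 2.34 CPM in BCAA-free mice (SD, n = 3) and 38.3 ± 6.27 CPM in standard-diet mice (SD, n = 5; edgeR adjusted p = 0.393). These 3 were chosen as textbook targets after their values were seen.

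Of 22 inflammatory genes known to be repressed by the hormone, 12 were tested and none was past the threshold by edgeR, DESeq2 or limma-voom (4 at an unadjusted p under 0.05, against 13.5% of all genes, and median log2 fold change -0.13). Csf1, the growth factor of macrophages, separated fully, at 2.11 ± 0.377 CPM in BCAA-free mice (SD, n = 3) and 3.96 ± 1.13 CPM in standard-diet mice (SD, n = 5; edgeR adjusted p = 0.297). Vcam1, an adhesion molecule and also a macrophage marker, separated likewise, at 158 ± 48.7 CPM in BCAA-free mice (SD, n = 3) and 221 ± 11.5 CPM in standard-diet mice (SD, n = 5; edgeR adjusted p = 0.182). That list held 5 positive and 7 negative log2 fold changes.

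The machinery around the receptor held no called gene by edgeR, DESeq2 or limma-voom. This covers 15 chaperones (4 at an unadjusted p under 0.05, median 0.09), 22 coregulators (3, median 0.07) and 6 genes of hormone access (1, median 0.00), beside 13.5% of all genes at that p. Dnajb1, a heat shock co-chaperone, was higher in all 3 BCAA-free libraries, at 80.1 ± 4.77 CPM (SD, n = 3), than in the 5 standard-diet libraries, at 61.0 ± 7.60 CPM (SD, n = 5; edgeR adjusted p = 0.146). The margin was small, since BCAA-free replicate 1 was at 74.6 CPM and standard-diet replicate 4 at 74.4 CPM. Hsp90ab1, the chaperone that holds the unloaded receptor, was at 3756 ± 358 CPM in BCAA-free mice (SD, n = 3) and 3149 ± 269.9 CPM in standard-diet mice (SD, n = 5; edgeR adjusted p = 0.309). The deacetylase Hdac2, a coregulator, was at 164 ± 4.95 CPM in BCAA-free mice (SD, n = 3) and 192 ± 16.1 CPM in standard-diet mice (SD, n = 5; edgeR adjusted p = 0.348). Hsd11b1, which regenerates active hormone inside cells, was at 10.8 ± 2.41 CPM in BCAA-free mice (SD, n = 3) and 15.4 ± 2.96 CPM in standard-diet mice (SD, n = 5; edgeR adjusted p = 0.300). H6pd, which supplies its cofactor, was at 154 ± 7.15 CPM in BCAA-free mice (SD, n = 3) and 137 ± 16.0 CPM in standard-diet mice (SD, n = 5; edgeR adjusted p = 0.529).

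A further 3 lists hold relatives of the 10 genes and genes that answer to other signals. The lists share genes, so their counts are not separate evidence. Among others, Txnip, Il7r, Pik3ip1 and Irs2 are in both the receptor-induced and the FOXO list. Per2 and Per3 are relatives and clock genes, and Fos, Btg2 and Zfp36 are receptor-induced and immediate early genes. The FOXO list's DESeq2 calls were Foxo1, itself a FOXO factor, with Txnip and Il7r, which DESeq2 also called in the receptor-induced list. Of 29 tested relatives of the 10 genes none passed in edgeR or limma-voom, 7 had an unadjusted p under 0.05 (against 13.5% of all genes), and DESeq2 called Sgk3 and Hif1a lower (against 2.06%). Of 26 tested genes induced by FOXO factors none passed in edgeR or limma-voom, 8 had an unadjusted p under 0.05 (against 13.5%), 20 had a positive log2 fold change (median 0.25) and DESeq2 called 3 higher (against 0.99%). Foxo1, a transcription factor that insulin signalling keeps out of the nucleus, was higher in all 3 BCAA-free libraries, at 9.09 ± 1.95 CPM (SD, n = 3), than in all 5 standard-diet libraries, at 4.14 ± 0.852 CPM (SD, n = 5; edgeR adjusted p = 0.0610, DESeq2 adjusted p = 0.00728). The 20 tested immediate early genes, which respond to serum and to handling of cells, had none called by edgeR, DESeq2 or limma-voom, 6 at an unadjusted p under 0.05 (against 13.5%), 17 positive values and a median of 0.31. In that list Jund was at 15.5 ± 3.53 CPM in BCAA-free mice (SD, n = 3) and 9.11 ± 2.02 CPM in standard-diet mice (SD, n = 5; edgeR adjusted p = 0.147), and Srf at 113 ± 17.5 CPM and 87.9 ± 6.26 CPM in the same order (edgeR adjusted p = 0.163).

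**Figure D4:**
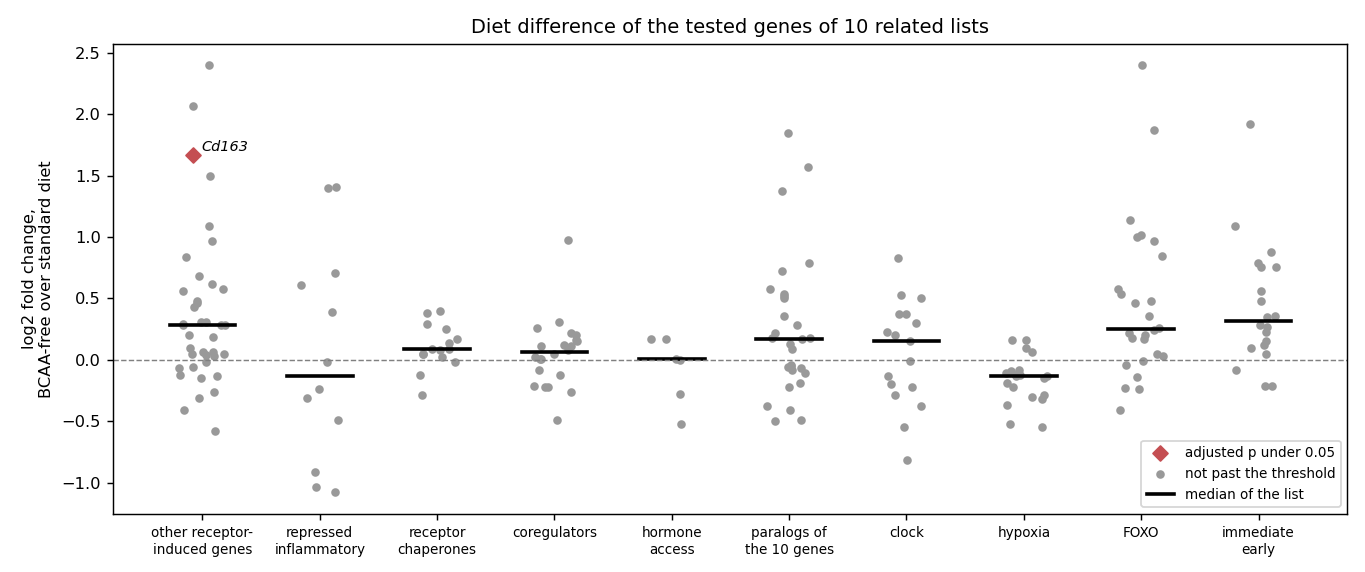
Log2 fold change, BCAA-free over standard diet (y axis), of each tested gene in 10 lists of related genes; black lines are list medians and the red diamond is a gene past the threshold. Cd163 was the 1 gene past it, and medians ran from -0.13 (repressed inflammatory genes, hypoxia) to 0.31 (immediate early genes).

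Some markers of other cell types differed with diet in these sorted samples, and in bulk RNA fewer cells of a type and less RNA per cell cannot be told apart. All 16 leukaemia markers were detected in every library (among them Hoxa9, Meis1 and Mpo), with a summed level of 10143 to 11691 CPM in BCAA-free mice and 12646 to 15430 CPM in standard-diet mice and none of the 16 called. Mpo made up 61.2% of that sum, at 6236 ± 635 CPM in BCAA-free mice (SD, n = 3) and 8798 ± 1044 CPM in standard-diet mice (SD, n = 5; edgeR adjusted p = 0.0605), while the log2 fold changes of Hoxa9 and Meis1 were -0.08 and -0.10. Without Mpo the sums still did not overlap, at 4321.5 to 4724.7 CPM in BCAA-free mice and 4831.4 to 5636.9 CPM in standard-diet mice. That reduced sum was chosen after its values were seen. The 15 B cell genes summed to 73.1, 146 and 34.01 CPM in BCAA-free replicates 1 to 3, against 17.6 to 58.9 CPM in standard-diet mice, and Cd79a and Cd79b, parts of the B cell receptor complex, were among those called higher. The 58.9 CPM belonged to standard-diet replicate 3, where Jchain alone, looked up after the sums were seen, stood at 45.9 CPM. Jchain was at 2.67, 3.57, 4.02 and 9.31 CPM in standard-diet replicates 1, 2, 4 and 5, and at 18.2, 6.93 and 2.99 CPM in BCAA-free mice. The 18 T and NK cell genes summed to 28.4, 81.6 and 18.04 CPM in BCAA-free mice, against 15.5 to 31.9 CPM in standard-diet mice, with none of 18 called. The 19 macrophage genes summed to 448, 576 and 298 CPM in BCAA-free mice, against 389 to 456 CPM in standard-diet mice, with Cd163 the 1 called gene of 17. Vcam1 made up 45.4% of that sum. Without Vcam1 the sum was 247, 409 and 193 CPM in BCAA-free replicates 1 to 3, against 182 to 237 CPM in standard-diet mice. This reduced sum was chosen after its values were seen. Flt3 is in both the macrophage and the leukaemia list. The 14 neutrophil genes summed to 2968, 6593 and 1836 CPM in BCAA-free replicates 1 to 3, against 1031 to 6727 CPM in standard-diet mice, with none called. The erythroid and platelet sum was 245 to 403 CPM in BCAA-free mice and 229 to 359.8 CPM in standard-diet mice, again with none called. The transferrin receptor gene Tfrc, which growing cells of many types express, made up 93.2% of it. Without Tfrc, a sum chosen after its values were seen, it was 27.7, 13.8 and 58.1 CPM in BCAA-free replicates 1 to 3, against 8.06 to 20.03 CPM in standard-diet mice, so the erythroid sum was highest in replicate 3, as Tsc22d3, Fkbp5 and Per1 were. The 15 stromal and vessel genes summed to 74.1, 49.7 and 49.7 CPM in BCAA-free mice, against 31.6 to 53.6 CPM in standard-diet mice. Pecam1 made up 54.3% of that sum. Without Pecam1, a sum chosen after its values were seen, it was 55.6, 30.0 and 21.7 CPM, against 7.32 to 19.2 CPM, without overlap. Of 7 tested genes Cxcl12 was called higher, at 23.8 ± 13.8 CPM (SD, n = 3) against 5.21 ± 2.25 CPM (SD, n = 5). Pecam1 and Pdgfrb had negative log2 fold changes (-0.34 and -0.06). No gene of these lists was at 0 in all libraries. BCAA-free replicate 3, in which Tsc22d3, Fkbp5 and Per1 were highest, had the smallest of the 3 BCAA-free sums for B cell, T and NK cell, macrophage and neutrophil genes, whereas replicate 2, with the largest, was highest for Hif3a and Ddit4. The part of these cells in the levels of Tsc22d3, Fkbp5, Per1, Hif3a, Ddit4, Cd163 and Il7r was not tested.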

How the data were processed

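Polyadenylated RNA of sorted leukaemia cells was sequenced in paired reads of 38 bp, per the labels' protocols. The authors deposited 1 table of raw counts per gene and library, not normalized. The submitters' processing notes name featureCounts, Cell Ranger and the mm10 build. Not given in the sources used here: which aligner was used, whether counting used strand, and how multiply matching reads were handled. All 8 columns matched a sample's description label, and groups came from sample titles. Symbols came from the RefSeq table of GRCm38.p6 (25275 of 27179 identifiers matched), and exon lengths from GENCODE M21 on the same assembly. No pair of libraries within a diet looked like a repeated deposit (chi-square over genes, divided by its degrees of freedom, 20.3 to 66.0).

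The fit used edgeR 4.0.16 in R 4.3.3 (quasi-likelihood, robust, TMM, minimum count 10, minimum total 15, diet as the term) on all 8 libraries, with Benjamini-Hochberg adjustment over 13364 genes at 0.05. Fold changes are BCAA-free over standard diet, and each SE was derived from the fold change and its F value. The common biological coefficient of variation was 23%. P-values set the diet difference against the spread between these libraries. Correlations used log2(CPM + 0.5). The procedure was tested on simulated data. Alternatives were DESeq2 1.42.0, limma-voom (limma 3.58.1), RLE factors, no filter, unscaled totals, a replicate block and leaving out libraries. The 10 genes, the 10 lists of related genes and the tests were chosen with earlier results of these data known. Named were the 10 genes, the called members of each list up to 4 (otherwise the 2 with the smallest p), the 5 genes most like Tsc22d3 and Nr3c1, and a few said to be added later; 1 gene that the rule names is not reported here. Promoter sequences are from RefSeq, and those of Nr3c1 and Zbtb16 are not used here.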

Additional observations from a re-analysis of the deposited data

Results flagged for a closer look

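Over 47 sets of 5 standard-diet values screened for a library far from the other 4, 1 was flagged, and chance flags about 1 set in 20. Dnajb1, the heat shock co-chaperone, stood at 74.4 CPM in its highest standard-diet library, where the gap to the next made up 0.819 of the whole range. That library lay only just below the lowest of the 3 BCAA-free libraries, replicate 1 at 74.6 CPM.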

How the results depend on the processing

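Over all genes 101 were called, against 376 by DESeq2, 237 with no filter on low counts and 32 to 134 with 1 library left out (replicates 2 and 3 of the BCAA-free diet). Of the 10 genes, 2 were called, against 3 by DESeq2, 1 by limma-voom (Hif3a), 1 without BCAA-free replicate 3 and standard-diet replicate 1 together, and 1 to 2 with 1 library left out. Tsc22d3 was lost, leaving 1, without replicate 2 or 3 of the BCAA-free or 1, 2, 4 or 5 of the standard diet; without standard-diet replicate 3 it was lost and Zbtb16 was called lower. The other induced genes had 1 call, against 4 by DESeq2, 0 by limma-voom, 0 with RLE factors, 3 with no filter, 2 without that pair of libraries and 0 to 2 with 1 library left out. Relatives of the 10 genes had 0, against 2 by DESeq2, 2 with no filter and 0 to 1 with 1 library left out. Clock genes had 0, against 1 by DESeq2. FOXO genes had 0, against 3 by DESeq2, 2 with no filter, 1 without that pair and 0 to 2 with 1 library left out. Txnip and Il7r are counted both among the FOXO genes and among the other induced genes. The other 6 lists had 0 under each of these alternatives. The median r within diet groups was between -0.01 and 0.19 with 1 library left out. Among the member fold changes under the alternatives, 132 moved by less than their SE and 8 by more.

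Deviations of same-numbered libraries correlated at -0.0808, -0.0518 and -0.298, and no BCAA-free library correlated best with the standard-diet library of its own number. Whether same-numbered libraries were handled together cannot be told from these values. With the replicate block edgeR called 0 genes, over all genes (899 at an unadjusted p under 0.05) and in each list. Of the genes named for likeness, the log2 fold change of Gabarapl2 (-0.26) ranged from -0.53 to 0.04, that of 2310040G24Rik (0.23) from -0.13 to 0.44 and that of Pnrc1 (0.01) from -0.26 to 0.14 with 1 library left out, and Pnrc1 was at -0.05 with the block. The cause of these changes was not tested. Depth limits Dusp1, Klf9, Sgk1 and Ddit4 most, each with a library under 100 counts.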
